A study of Mus musculus with 12 samples.

Results

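The Cyp4a genes of the mouse liver encode cytochrome P450 enzymes that hydroxylate fatty acids at the omega end of the chain. The 6 members described here, Cyp4a10, Cyp4a14, Cyp4a31, Cyp4a32, Cyp4a12a and Cyp4a12b, were chosen by symbol from the 15140 genes of the deposited count table, and all 6 were present and tested. Liver RNA was sequenced after polyA selection from 12 samples of male mice, 6 with the prohibitin 1 gene deleted in adipocytes (Phb1adipo-/-, labelled Phb1 KO and called KO here) and 6 wild-type (WT). Both groups ate a high-fat diet with 60 kcal% fat for 3 months, from an age of 7 to 8 weeks. The sources used here do not give the Cre driver of the deletion. The libraries are called KO1 to KO6 and WT1 to WT6 after the numbers in their titles. No label ties a library to an animal or a preparation, so the p-values given here reflect only variation among libraries, which may be technical.

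CYP4A enzymes sit in the endoplasmic reticulum and take electrons from NADPH-cytochrome P450 reductase. Their omega-hydroxy fatty acids are oxidised by alcohol and aldehyde dehydrogenases to dicarboxylic acids, which peroxisomes then shorten. Cyp4a10 and Cyp4a14 are textbook target genes of the nuclear receptor PPAR alpha in liver, induced by fasting and by fibrate drugs. Cyp4a12a is the male-predominant enzyme of the family and converts arachidonic acid to a vasoactive omega-hydroxy product.

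The 6 genes lie in 1 cluster on chromosome 4 (GRCm38, GENCODE M21), where they span 322.557 kb from 115299046 to 115621602. From the low-coordinate end the order is Cyp4a12a (ENSMUSG00000066071, 115299046 to 115332815), Cyp4a12b (ENSMUSG00000078597, 115411624 to 115439034), Cyp4a14 (ENSMUSG00000028715, 115486200 to 115496142), Cyp4a10 (ENSMUSG00000066072, 115518264 to 115533649), Cyp4a31 (ENSMUSG00000028712, 115563649 to 115579015) and Cyp4a32 (ENSMUSG00000063929, 115600969 to 115621602). Cyp4a14 is on the reverse strand and the other 5 are on the forward strand. The cluster also holds pseudogenes and the protein-coding genes Cyp4a29 and Cyp4a30b. Cyp4a29 lies before Cyp4a12a, and Cyp4a30b lies between Cyp4a12b and Cyp4a14. Neither gene is a member and neither was tested. The body of Cyp4a12b overlaps the predicted gene Gm12837, with no exon in common. The 6 members formed 3 sequence groups. Cyp4a12a and Cyp4a12b were 98.5% identical over their aligned coding bases, differing at 23 of 1524. Cyp4a10 differed from Cyp4a32 at 43 of 1527 coding bases and from Cyp4a31 at 52 of 1527, which are identities of 97.2% and 96.6%. Cyp4a14 stood apart, with 75.0% to 75.9% identity to the other 5.

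The stretch of coding sequence that encodes the heme-binding loop, where a conserved cysteine holds the heme iron, is shown first because it carries the catalytic signature of all 6 enzymes. Capitals mark the 10 of 60 positions at which the 6 members are not all the same. The stretch crosses from exon 11 to exon 12 in each gene, and sequences are given 5′ to 3′ on the coding strand, from the GENCODE M21 transcripts.
Cyp4a10: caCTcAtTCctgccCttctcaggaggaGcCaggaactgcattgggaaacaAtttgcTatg
Cyp4a31: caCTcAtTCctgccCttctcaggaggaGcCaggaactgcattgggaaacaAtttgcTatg
Cyp4a32: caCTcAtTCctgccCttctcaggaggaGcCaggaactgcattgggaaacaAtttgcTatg
Cyp4a12a: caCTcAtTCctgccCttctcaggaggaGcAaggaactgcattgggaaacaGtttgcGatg
Cyp4a12b: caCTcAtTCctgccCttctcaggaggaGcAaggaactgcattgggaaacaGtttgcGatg
Cyp4a14: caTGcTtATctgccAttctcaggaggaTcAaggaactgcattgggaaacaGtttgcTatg
In this stretch Cyp4a10, Cyp4a31 and Cyp4a32 were identical, as were Cyp4a12a and Cyp4a12b. Cyp4a14 differed at 9 bases from the Cyp4a10 group and at 8 from the Cyp4a12 pair.

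Shown next is the 60-base stretch with the most variable positions among coding stretches without alignment gaps and within 1 exon in every gene. Reads from it can separate the groups. The stretch follows the start codon in exon 1 (coding bases 4 to 63, chr4:115518325-115518384 in Cyp4a10), and capitals again mark the positions, here 35, that differ among the 6.
Cyp4a10: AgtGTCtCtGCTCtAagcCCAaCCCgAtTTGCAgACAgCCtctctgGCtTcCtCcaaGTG
Cyp4a31: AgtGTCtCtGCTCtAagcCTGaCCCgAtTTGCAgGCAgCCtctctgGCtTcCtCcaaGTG
Cyp4a32: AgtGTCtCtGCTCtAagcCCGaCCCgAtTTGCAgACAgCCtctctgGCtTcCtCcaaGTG
Cyp4a12a: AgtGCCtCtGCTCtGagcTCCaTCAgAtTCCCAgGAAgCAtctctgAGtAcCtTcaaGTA
Cyp4a12b: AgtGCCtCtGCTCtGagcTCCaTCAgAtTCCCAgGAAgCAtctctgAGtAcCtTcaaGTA
Cyp4a14: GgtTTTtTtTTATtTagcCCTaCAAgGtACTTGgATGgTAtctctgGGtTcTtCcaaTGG
Even here Cyp4a12a and Cyp4a12b were identical. Cyp4a10 differed from Cyp4a32 at 1 base and from Cyp4a31 at 3 bases, and from Cyp4a14 at 26. A read from such a stretch can be assigned to 1 group but not always to 1 copy. Of all 100-base windows of the spliced exons, 35.8% in Cyp4a12a and 36.2% in Cyp4a12b also occurred in the other gene of that pair. The share found in any other annotated gene, pseudogenes included, was 20.1% in Cyp4a32 (13.8% in Cyp4a10, its closest partner). It was 12.7% in Cyp4a10, 8.22% in Cyp4a31 and 0% in Cyp4a14. The read length is unknown, and the shares depend on the window: with 50 bases they were 48.9% in Cyp4a12a, 49.4% in Cyp4a12b, 46.8% in Cyp4a32, 30.5% in Cyp4a10, 21.8% in Cyp4a31 and 0.245% in Cyp4a14. With 150 bases they ran from 0% in Cyp4a14 through 4.19% to 7.97% in the Cyp4a10 group to 25.6% and 25.9% in the Cyp4a12 pair. How the authors' counting treated such reads is not given in the sources used here, so the split between close copies is uncertain, and sums over copies are given with the single genes.

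**Figure D1:**
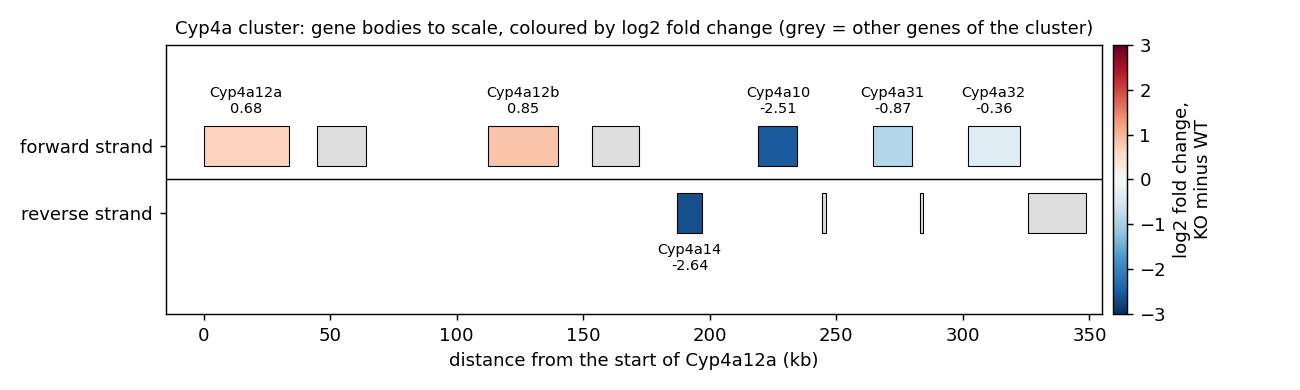
Map of the Cyp4a cluster, with distance from the start of Cyp4a12a in kb on the horizontal axis and the strand on the vertical axis. Boxes are gene bodies to scale, coloured by the log2 fold change of KO against WT. Grey boxes are other Cyp4a and Cyp4b genes and pseudogenes, and genes with other names are not drawn. The 2 members at the low-coordinate end have positive values (0.68 and 0.85), and the other 4 have negative values (-2.64 to -0.36).

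Total counts per library ran from 30348123 to 40828767, and each of the 6 members was measured in every library. Phb, the deleted gene, stood at 88.6 to 100.4 CPM (counts scaled by the TMM-adjusted library size) in KO liver and 80.0 to 91.2 CPM in WT liver, which does not check a deletion made in adipocytes. Summed CPM of 5 hepatocyte markers overlapped between groups (63487 to 88133 in KO and 61055 to 90994 in WT). The 7 macrophage markers summed to 102 to 225 CPM in KO and 222 to 339 CPM in WT, and all 7 had negative log2 fold changes. DESeq2 called 7 as lower, against 4.50% of all genes, and edgeR called 3, against 1.49%. Those 3 were Cd5l, Adgre1 and Vsig4, with log2 fold changes of -1.10, -0.87 and -0.79 (edgeR adjusted p from 0.0194 to 0.0368). All 3 edgeR calls were lost without WT2 or without WT4; the call on Adgre1 was also lost without KO6 or WT5, and that on Vsig4 without KO1, KO5, KO6, WT1 or WT5 (adjusted p up to 0.0887). Mitochondrially encoded genes took 5.39% to 6.41% of counts in KO and 5.10% to 5.59% in WT (exact permutation test, two-sided, p = 0.0173). The part of macrophage RNA and of the mitochondrial share in the results on Cyp4a genes was not tested. In whole liver, fewer cells of a type and less RNA per cell cannot be told apart.

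Cyp4a10 and Cyp4a14 were several-fold lower on average in KO liver, but their WT libraries were split. Cyp4a10 stood at 92.8, 156, 153, 163, 55.1 and 76.0 CPM in KO1 to KO6 and at 1198, 1285, 74.1, 1082, 270.2 and 68.7 CPM in WT1 to WT6. WT1, WT2, WT4 and WT5 were above every KO library, while WT3 and WT6 lay among the KO values. The means were 116.0 ± 46.9 CPM in KO and 663 ± 584 CPM in WT (SD, n = 6 per group), and the medians were 123 and 676 CPM. The log2 fold change was -2.51 ± 0.74 (SE; edgeR quasi-likelihood test, adjusted p = 0.0882), which did not pass the threshold of 0.05. Adjusted p-values are by Benjamini-Hochberg over all genes tested.

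Cyp4a14 had the same arrangement. It stood at 70.5, 140.1, 172, 197, 27.9 and 97.2 CPM in KO1 to KO6 and at 1185, 1777, 35.4, 1117, 217 and 52.4 CPM in WT1 to WT6. WT1, WT2, WT4 and WT5 again exceeded every KO library, and WT3 and WT6 lay within the KO range. The group means were 117 ± 63.9 and 731 ± 729 CPM (SD, n = 6 per group), with a log2 fold change of -2.64 ± 0.91 (SE; edgeR adjusted p = 0.130). Exact two-sided permutation tests on log2 CPM gave p = 0.0844 for Cyp4a10 and p = 0.152 for Cyp4a14.

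The call on these 2 genes depended on the test. DESeq2 gave nearly the same log2 fold changes, -2.52 for Cyp4a10 and -2.64 for Cyp4a14, with adjusted p of 0.00988 and 0.0287, so that both passed. In the authors' deposited table the log2 fold changes were -2.51 and -2.63, with adjusted p of 0.000186 and 0.00369. DESeq2 called 2 of 6 members lower, against 4.50% of 14411 genes, and the authors' deposited table called the same 2, against 2.98% of 14947 genes. edgeR called 0 of 6 members in either direction, against 1.49% of 15000 genes lower and 1.15% higher. An unadjusted edgeR p under 0.05 was found for 3 of 6 (Cyp4a10, Cyp4a14 and Cyp4a12a), and for 3184 of all 15000 genes. limma-voom also called 0 members, with smaller log2 fold changes of -1.75 for Cyp4a10 and -1.66 for Cyp4a14. With WT6 left out, edgeR called Cyp4a10 (log2 fold change -2.75, adjusted p = 0.0383).

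**Figure D2:**
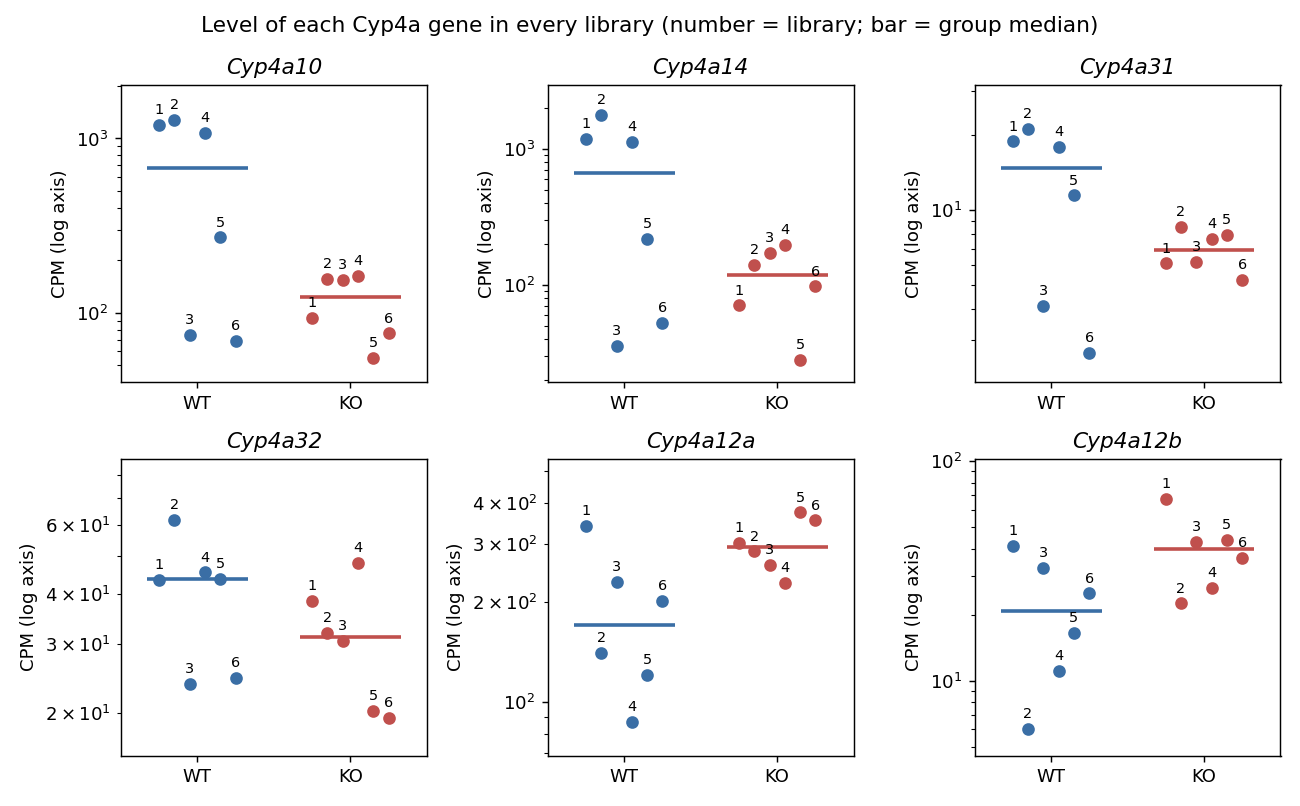
Level of each Cyp4a gene in the 6 WT and 6 KO libraries, in CPM on a log axis; each point is 1 library with its number, and bars are group medians. For Cyp4a10 and Cyp4a14, WT1, WT2, WT4 and WT5 lie above all KO libraries and WT3 and WT6 lie low; for Cyp4a12a, 4 WT libraries lie below all KO libraries.

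Cyp4a31 and Cyp4a32, the close copies of Cyp4a10, had smaller differences. Cyp4a31 stood at 6.10, 8.52, 6.21, 7.64, 7.96 and 5.25 CPM in KO1 to KO6 and at 18.8, 21.1, 4.11, 17.9, 11.4 and 2.67 CPM in WT1 to WT6. The same 4 WT libraries were above all KO libraries, and WT3 and WT6 were below all of them. Its log2 fold change was -0.87 ± 0.44 (SE; edgeR adjusted p = 0.278). Cyp4a32 ranged from 19.5 to 48.1 CPM in KO (31.4 ± 10.9, SD) and from 23.8 to 61.6 CPM in WT (40.4 ± 14.3, SD). Its groups overlapped broadly, and the log2 fold change was -0.36 ± 0.27 (SE; edgeR adjusted p = 0.477), and -0.20 without WT2.

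The Cyp4a12 pair had values on the other side of 0. Cyp4a12a stood at 302, 285, 260, 229, 374 and 354 CPM in KO1 to KO6 and at 341, 141, 230, 87.2, 121 and 202 CPM in WT1 to WT6. WT2, WT4, WT5 and WT6 were below every KO library, whereas WT1 was as high as the upper KO libraries. The means were 301 ± 55.3 CPM in KO and 187 ± 92.0 CPM in WT (SD, n = 6 per group). The log2 fold change was 0.68 ± 0.28 (SE; edgeR adjusted p = 0.190; exact permutation p = 0.0281, unadjusted), and neither edgeR nor DESeq2 (adjusted p = 0.0862) called it.

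Cyp4a12b, the lower of the pair, stood at 67.5, 22.5, 43.0, 26.5, 43.8 and 36.3 CPM in KO1 to KO6 and at 41.3, 6.03, 32.7, 11.04, 16.6 and 24.97 CPM in WT1 to WT6. Of the KO libraries, 3 were above every WT library, and 3 WT libraries were below every KO library. The log2 fold change was 0.85 ± 0.43 (SE; edgeR adjusted p = 0.275). None of the 6 members separated the groups without overlap, which 2.53% of all genes did.

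**Figure D3:**
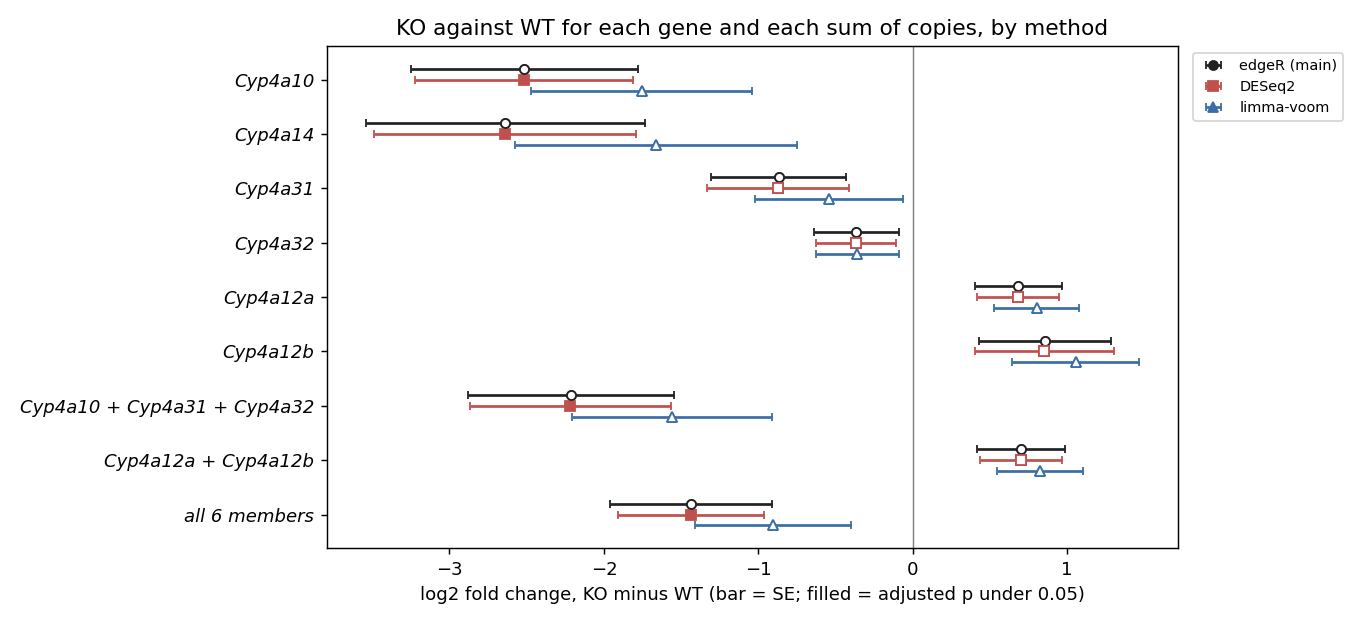
Log2 fold change of KO against WT (horizontal axis) for each gene and each sum of copies, by 3 methods; bars are SE and filled symbols have an adjusted p under 0.05. Cyp4a10, Cyp4a14, Cyp4a31 and Cyp4a32 lie left of 0 and Cyp4a12a and Cyp4a12b right of it under all 3 methods, and DESeq2 calls Cyp4a10, Cyp4a14, the sum of Cyp4a10, Cyp4a31 and Cyp4a32, and the sum of all 6.

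Per kb of annotated exon, the order of the members' means was different in the 2 groups. These values compare genes only roughly, since the share of windows found in other genes differed by member. The annotated exons also differed, with 1536 bases in Cyp4a32, of which 1527 were coding, and 2109 to 2601 bases in the other members. In KO liver Cyp4a12a was the most abundant member at 124 ± 22.8 CPM per kb (SD, n = 6), above Cyp4a10 at 55.0 ± 22.3 and Cyp4a14 at 45.1 ± 24.6. In WT liver Cyp4a10 had the highest mean at 314 ± 277 CPM per kb (SD, n = 6), with Cyp4a14 at 281 ± 280 and Cyp4a12a at 77.2 ± 38.0. Cyp4a10 and Cyp4a14 did not differ beyond their spread in either group, and in WT the SD was too large to set Cyp4a12a apart from them. Cyp4a32 (20.5 ± 7.10 in KO and 26.3 ± 9.32 in WT) and Cyp4a12b (16.7 ± 6.69 in KO and 9.23 ± 5.60 in WT) were lower, and Cyp4a31 had the lowest means, 2.77 ± 0.51 and 5.05 ± 3.15 CPM per kb. The order in WT differed by library: Cyp4a14 was highest in WT2, Cyp4a12a was highest in WT3 and WT6, and Cyp4a12b was below Cyp4a31 in WT2 and WT4.

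Sums over close copies do not depend on how counted reads were divided within the sum. Shared reads that were left out of counting would be missing from the sums too. Cyp4a10, Cyp4a31 and Cyp4a32 together had 154 ± 55.4 CPM in KO and 716 ± 603 CPM in WT (SD, n = 6 per group), with a log2 fold change of -2.21 ± 0.67 (SE; edgeR adjusted p = 0.0950; DESeq2 adjusted p = 0.0149). The Cyp4a12 pair together had 340 ± 61.8 and 209 ± 105 CPM, with a log2 fold change of 0.70 ± 0.29 (SE; edgeR adjusted p = 0.185). All 6 members summed to 529 to 670 CPM in KO libraries, and to 2828, 3291, 400.5, 2360, 680 and 375 CPM in WT1 to WT6. The log2 fold change of this total was -1.44 ± 0.53 (SE; edgeR adjusted p = 0.151), and DESeq2 called it (adjusted p = 0.0339).

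The mix of Cyp4a transcripts also varied. The Cyp4a12 pair made up 64.0%, 47.8%, 45.5%, 38.1%, 79.0% and 66.3% of the counts of the 6 members in KO1 to KO6, and 13.5%, 4.47%, 65.7%, 4.16%, 20.2% and 60.5% in WT1 to WT6. WT3 and WT6 thus had a KO-like mix, and the other 4 WT libraries were below all KO libraries. The means were 56.8% ± 15.5 and 28.1% ± 27.8 (SD over 6 libraries; exact permutation p = 0.0498, and 0.130 after Benjamini-Hochberg adjustment over 6 mix measures). Within the Cyp4a12 pair, Cyp4a12a took 88.3% ± 3.94 in KO and 89.7% ± 3.09 in WT (SD over 6 libraries; exact permutation p = 0.528). Cyp4a31 took 5.05% ± 2.31 of the counts of the Cyp4a10 group in KO and 2.49% ± 1.12 in WT (SD over 6 libraries; exact permutation p = 0.0152, adjusted 0.0909), a difference of 2.56 percentage points that was 1.66 without KO5 (adjusted p = 0.182). The log2 ratio of Cyp4a14 to Cyp4a10 counts was -0.12 ± 0.51 in KO and -0.21 ± 0.52 in WT (SD over 6 libraries; exact permutation p = 0.758).

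Variation among WT libraries was wider than in the median gene for all 6 members, most so for Cyp4a14 and Cyp4a10. The SD of log2 CPM over the 6 WT libraries was 2.45 for Cyp4a14 and 2.00 for Cyp4a10, the 10th and the 26th widest of 15000 genes, where the median gene had 0.21. Cyp4a31, with an SD of 1.26, ranked 158. Cyp4a12b, Cyp4a12a and Cyp4a32 had SDs of 1.03, 0.71 and 0.54 and ranked 300, 962 and 1860. In KO, Cyp4a14, Cyp4a10 and Cyp4a31 had SDs of 1.04, 0.65 and 0.27 and ranked 371, 1564 and 6848, where the median gene had 0.25. The highest WT library exceeded the lowest 50.2-fold for Cyp4a14 and 18.7-fold for Cyp4a10, and the corresponding spans in KO were 7.04-fold and 2.95-fold. No test of these SDs between groups was made.

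Some members followed each other across libraries. WT libraries ranked nearly alike for Cyp4a10, Cyp4a14 and Cyp4a31, with WT1, WT2 and WT4 high, WT5 between, and WT3 and WT6 low. Since these values fall into separate clusters, no correlation is given over WT. Within KO, Cyp4a31 did not follow the other genes clearly. Its Pearson r there was 0.237 with Cyp4a10 and -0.072 with Cyp4a14 (exact permutation p = 0.66 and 0.89). Among the 6 KO libraries, Cyp4a10 and Cyp4a14 had Pearson r = 0.924 and Spearman rho = 0.886 (exact permutation p = 0.0111 for r). Cyp4a10 and Cyp4a12a ran in opposite directions there, with r = -0.926 and rho = -0.943 (exact permutation p = 0.00694 for r). Both had an adjusted p of 0.0833 over the 15 pairs of members, which did not pass. Without KO5 and KO6, the libraries farthest from the median of Cyp4a10, r was 0.966 for Cyp4a14 and -0.721 for Cyp4a12a. The WT libraries did not show this opposition as an order: WT1 was high in both Cyp4a10 and Cyp4a12a (1198 and 341 CPM), and WT4 was high in the first and lowest in the second (1082 and 87.2 CPM).

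**Figure D4:**
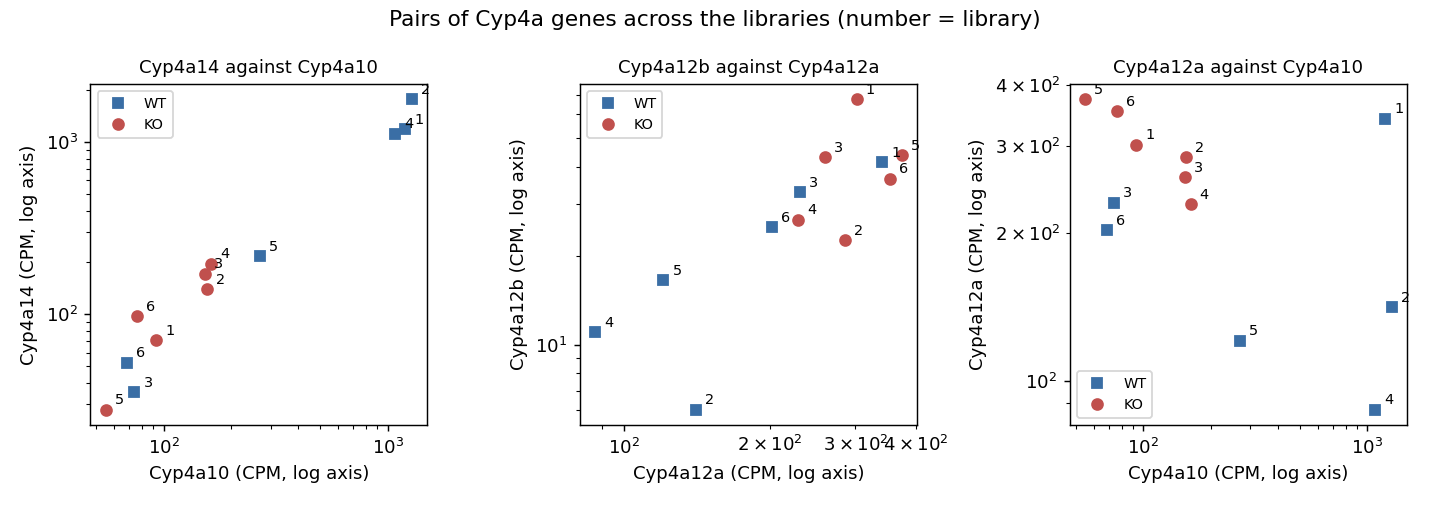
Pairs of Cyp4a genes across the 12 libraries, both axes in CPM on log scales; squares are WT, circles KO, and numbers name the library. Cyp4a14 follows Cyp4a10 over the whole range. Cyp4a12b follows Cyp4a12a more loosely over the 12 libraries, but not clearly within KO (Pearson r = 0.368, exact permutation p = 0.482). The KO libraries highest in Cyp4a10 (2, 3 and 4) are lowest in Cyp4a12a.

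Other genes of the pathway were taken from lists. Of 9 tested P450 partners and dehydrogenases, none was called by edgeR or DESeq2, 2 had positive and 7 negative log2 fold changes, and the median was -0.05, beside 0.0031 over all genes. Por, the reductase that feeds electrons to CYP4A enzymes, stood at 232 ± 70.5 CPM in KO and 406 ± 170 CPM in WT (SD, n = 6 per group; log2 fold change -0.81, edgeR adjusted p = 0.188). Cyb5a, Cyb5b and Adh1, the electron carrier cytochrome b5 in its microsomal and mitochondrial forms and a liver alcohol dehydrogenase, had log2 fold changes of -0.22, 0.13 and -0.16. Of 9 other tested Cyp4 genes, none was called by edgeR and the median was 0.02. Cyp4f17 had the smallest p of these (27.5 ± 6.06 CPM in KO and 19.4 ± 3.96 in WT, SD, n = 6 per group; log2 fold change 0.51, edgeR adjusted p = 0.0937), and Cyp4f14, Cyp4f15 and Cyp4f16 had log2 fold changes of 0.21, -0.17 and -0.34. DESeq2 called 1 of these 9 as higher, Cyp4f17 (adjusted p = 0.0345), against 4.07% of all genes. Medians as near 0 as those of these lists changed sign with the libraries used (P450 partners 0.02 without WT1, other Cyp4 genes -0.06 without KO6).

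Among 14 tested genes of peroxisomal fatty acid and dicarboxylate oxidation, 2 fell (3 with DESeq2, which added Acaa1a) and the median log2 fold change was -0.18. Of all genes, edgeR called 1.49% and DESeq2 4.50% as lower. The median was -0.11 without WT1 or without WT2 and -0.30 without WT6. Acot4, which hydrolyses succinyl- and other dicarboxylyl-CoA esters, stood at 35.3, 44.6, 35.5, 45.3, 38.2 and 27.2 CPM in KO1 to KO6 and at 120, 249, 101, 210, 112 and 45.1 CPM in WT1 to WT6. Only WT6 reached the KO range, and the gene fell by 1.89 ± 0.34 on the log2 scale (SE; edgeR adjusted p = 0.0230). Acot3, a peroxisomal acyl-CoA thioesterase, was at 0.71 to 4.04 CPM in KO and at 20.3, 98.2, 14.5, 65.6, 19.2 and 2.09 CPM in WT1 to WT6. It fell by 4.00 ± 0.79 on the log2 scale (SE; edgeR adjusted p = 0.0273). The call on Acot4 was lost without KO6, WT2 or WT4 (adjusted p up to 0.0566). That on Acot3 was lost without KO2, KO5, KO6, WT2, WT4 or WT5 (up to 0.0666) and with limma-voom (0.130). Acot1, Acot3 and Acot4 are close paralogs, so reads shared between them are uncertain too. Ehhadh and Acaa1a, which carry out steps of peroxisomal beta-oxidation, and the fatty acid transporter Slc27a2 had log2 fold changes of -0.44, -0.37 and -0.31, with edgeR adjusted p from 0.107 to 0.377.

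Ppara itself stood at 118, 115, 113, 35.2, 123 and 29.0 CPM in KO1 to KO6 and at 174, 203, 189, 191, 208 and 129.96 CPM in WT1 to WT6. Every KO library was below every WT library, and WT6 was the lowest of the WT libraries. Its log2 fold change was -1.04 ± 0.35 (SE; edgeR adjusted p = 0.121). Of 12 tested genes for PPAR alpha and its partners, edgeR called none and DESeq2 called 2 as lower (Ppara and Ncor1), against 4.50% of all genes. The median of this list was -0.10. The corepressor Ncor1 (-0.34, adjusted p = 0.0780), the liver transcription factor Creb3l3 (-0.23, 0.172) and the coactivator Ppargc1b (-0.51, 0.196) had the next smallest edgeR p-values of that list. Of 26 tested PPAR alpha target genes outside the Cyp4a family, 21 had negative log2 fold changes with a median of -0.22. Of the 26, edgeR called none and DESeq2 called 2 as lower (Slc22a5 and Cpt1a), against 4.50% of all genes. The median was -0.093 without WT2, with 19 negative, and -0.30 without WT3. The carnitine transporter Slc22a5 (-0.90, edgeR adjusted p = 0.0656), the thioesterase Acot1 (-1.28, 0.159), the acyl-CoA synthetase Acsl1 (-0.41, 0.193) and Cpt1a, the entry step of mitochondrial beta-oxidation (-0.34, 0.111), had the smallest p of these.

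Sex-biased liver genes were listed because Cyp4a12a is male-predominant. Of 14 tested male-biased genes, 13 had positive log2 fold changes with a median of 0.68, and 1 rose (2 with DESeq2, Elovl3 and Mup20). Of all genes, edgeR called 1.15% and DESeq2 4.07% as higher. The median was 0.41 without WT2, 0.44 without WT4 and 1.08 with library weights in limma-voom. The gene called by edgeR, the fatty acid elongase Elovl3, stood at 462, 417, 453, 549.6, 595 and 644 CPM in KO1 to KO6 and at 154, 62.5, 117, 48.0, 73.5 and 238 CPM in WT1 to WT6. Its groups did not overlap, and it rose by 2.17 ± 0.36 on the log2 scale (SE; edgeR adjusted p = 0.0176). Elovl3 stayed called with any 1 library left out (adjusted p up to 0.0455). Mup20, C6, Gstp1 and Ugt2b38 had log2 fold changes of 1.17, 0.83, 0.78 and 0.75 with edgeR adjusted p from 0.0957 to 0.319. Of 11 tested female-biased genes, 9 had negative values with a median of -0.69. In edgeR 2 fell, Acot3 (also counted in the peroxisomal list) and the prolactin receptor Prlr, against 1.49% of all genes. DESeq2 called these and Cyp2b9 as lower (4.50% of all genes) and Ntrk2 as higher (4.07%). Prlr went from 151 ± 53.0 CPM in WT to 71.5 ± 13.8 CPM in KO (SD, n = 6 per group; log2 fold change -1.08, edgeR adjusted p = 0.0267), and its call was lost without KO6, WT2 or WT4 (adjusted p up to 0.0659). Cyp2b9, Cyp2b13 and Abcd2 had log2 fold changes of -3.85, -2.38 and -0.68, and Ntrk2, of the same list, had 1.73 (edgeR adjusted p from 0.0720 to 0.371). Of 12 tested genes of growth hormone signalling and its regulators, edgeR called none and DESeq2 called 1 in each direction (Cish was the higher one). Of all genes, DESeq2 called 4.50% as lower and 4.07% as higher. The median log2 fold change of the 12 genes was -0.14. That median was -0.090 without KO2. Cish, a feedback inhibitor of cytokine and growth hormone receptors, had the smallest p of that list (4.31 to 63.0 CPM in KO and 1.89 to 8.63 CPM in WT; log2 fold change 2.64, edgeR adjusted p = 0.0570), and Jak2 and Bcl6 had -0.20 and -1.05.

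The genes most like each member across the libraries were found by Pearson r of log2 CPM over the 12 libraries after each group's mean was removed, among 11686 genes; these r values are a description and share the split of the WT libraries. For Cyp4a10 they were Pex11a (r = 0.952), a peroxisome proliferation factor, Acot1 (0.944) and Eci1 (0.941), an enoyl-CoA isomerase of beta-oxidation. For Cyp4a14 they were Suclg2 (r = 0.958), a subunit of succinyl-CoA ligase, Tmem98 (0.952) and Acadm (0.943), the medium-chain acyl-CoA dehydrogenase. Within the 6 KO libraries alone, these r values were 0.948, 0.832 and 0.887 for Cyp4a10 and 0.925, 0.875 and 0.911 for Cyp4a14. None of these genes passed the edgeR test between groups.

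Cyp4a31 was most like Nfe2l1 (r = 0.939), Thap12 (0.935) and Picalm (0.926), and Cyp4a32 most like Clcn4 (0.951), Fitm2 (0.940) and Snx21 (0.935). Within KO these r values were 0.797, 0.108 and 0.868 for Cyp4a31 and 0.963, 0.961 and 0.899 for Cyp4a32. Cyp4a12a was most like Saysd1 (r = 0.939), Noc2l (0.889) and Cdc123 (0.887), and Cyp4a12b most like Aasdhppt (0.908), C1galt1c1 (0.899) and E2f6 (0.893). Within KO these were 0.825, 0.567 and 0.890 for Cyp4a12a and 0.818, 0.703 and 0.743 for Cyp4a12b. Of these 12 genes, Saysd1 and Aasdhppt rose in KO, by 0.44 and 0.46 on the log2 scale (edgeR adjusted p = 0.0278 and 0.00534). The call on Saysd1 was lost without KO6, WT2, WT4 or WT5 (adjusted p up to 0.0709), and that on Aasdhppt was not lost without any 1 library.

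The listed genes differed in their r with Cyp4a14 over the 12 libraries, group means removed. These r values too share the split of the WT libraries, and no list was summarised within KO alone. Of 25 PPAR alpha targets with at least 1 CPM, 21 (84.0%) had r above 0.5 with Cyp4a14, with a median of 0.84, beside 12.2% of all genes and a median of -0.02. The count was 10 of 14 for peroxisomal oxidation (median 0.71), 3 of 12 for PPAR alpha and its partners (median 0.18), 3 of 9 for P450 partners and dehydrogenases and 1 of 7 for other Cyp4 genes. Of the male-biased genes, 12 of 14 had r under -0.5 with Cyp4a14, which 11.9% of all genes had. With Cyp4a12a, 11 of 14 had r above 0.5, which 10.7% of all genes had. The female-biased genes had r above 0.5 with Cyp4a14 in 6 of 8, with Acot3, also in the peroxisomal list, among them. Among the 7 macrophage markers, 4 had r above 0.5 with Cyp4a14. Among 5 hepatocyte markers, 2 had r under -0.5 with Cyp4a14 and 0 had r above 0.5. The part of macrophage RNA, or of RNA from other cell types, in these relations was not tested.

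**Figure D5:**
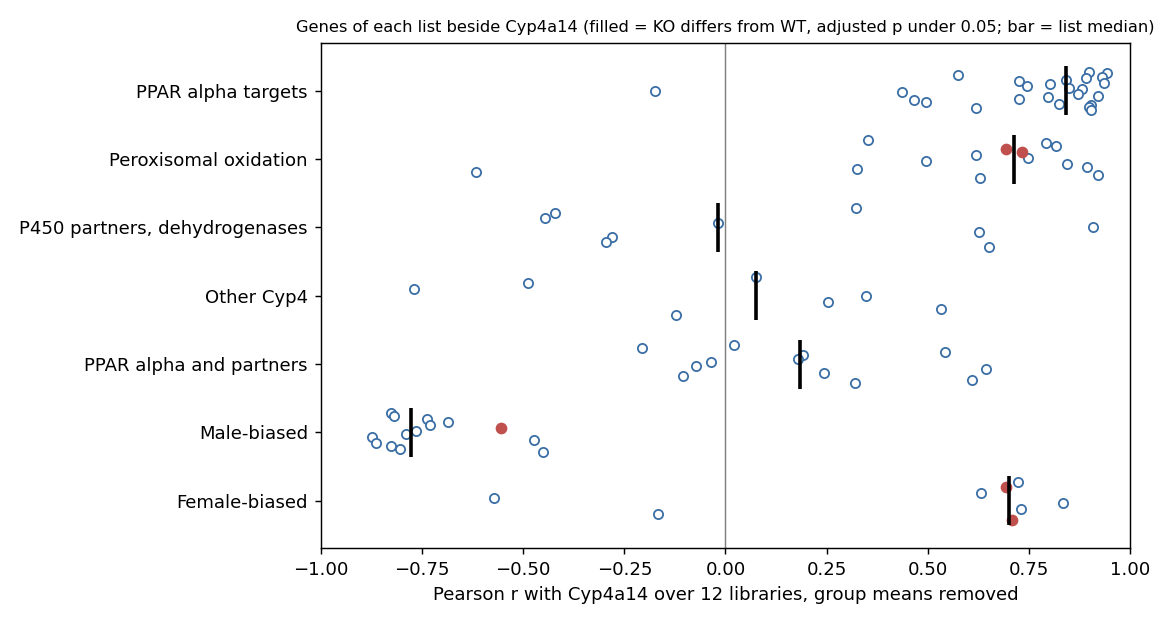
Pearson r of each listed gene with Cyp4a14 over the 12 libraries after removal of group means (horizontal axis), by gene list; points are genes averaging at least 1 CPM, bars are list medians, and filled points have an edgeR adjusted p under 0.05 between KO and WT. PPAR alpha targets lie mostly to the right (median 0.84) and male-biased genes to the left (median -0.78).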

How the data were processed

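Counts per gene from 12 polyA-selected liver libraries (6 KO, 6 WT) were analysed. The authors deposited whole-number read counts, not normalized, and beside them their own log2 fold changes, p-values, adjusted p-values and test score per gene, per the file headers. HISAT2 and featureCounts, with FastQC, Trimmomatic, SAMtools and DESeq2, and the build GRCm38 were used per the submitters' processing notes. Those notes, as used here, do not state read length, strand setting or how a read fitting several genes was counted. The members and gene lists were chosen with earlier results of these data known, and the relation of members to listed genes was added after the values were seen.

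The first of each set of repeated rows was kept (15140 genes from 15344 rows; the 204 repeats held the same counts). All 30 within-group pairs of libraries differed beyond counting noise (chi-square over its degrees of freedom, 38.1 to 242). With edgeR 4.0.16 (R 4.3.3), TMM scaling and filterByExpr (15000 genes kept, 140 removed), KO and WT were compared by a two-sided quasi-likelihood F test with robust estimation, with Benjamini-Hochberg adjustment over all genes and a threshold of 0.05. The SE is the absolute unshrunk log2 fold change divided by the square root of F. CPM values use TMM library sizes, and log2 CPM a prior count of 2. The script was tested on simulated data. Exact tests ran over 924 divisions of the libraries (smallest p 0.00216).

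The text names all members and their sums, and of each list every called gene and up to 4 others with the smallest p, except 2 listed genes that are not reported here. It also names the 3 genes most like each member (mean at least 1 CPM, predicted genes left out); macrophage markers are named where called. Alternatives were DESeq2 1.42.0, limma-voom (limma 3.58.1) with and without library weights, RLE factors, total counts, 2 other filters, a replicate block and each library left out. Coding sequences from GENCODE M21 were aligned with MAFFT 7.526. Promoters and proteins were not used here.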

Additional observations from a re-analysis of the deposited data

Results flagged for a closer look

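In 102 groups of 6 libraries, 8 had a highest or lowest library far from the others (its distance to the next library, as a share of the group's range, exceeded Dixon's critical value for 6 samples), where chance gives about 5.1, or about 1 in 20. Cyp4a12a took 95.9% of the counts of the Cyp4a12 pair in WT library 2, against 87.6% to 89.2% in the other WT libraries (distance over range 0.802). Cyp4a31 took 9.55% of the counts of the Cyp4a10 group in KO library 5, against 3.26% to 5.21% in the other KO libraries (0.690). WT library 6 was the lowest WT library by such a gap in Por (0.647), Adh1 (0.699) and Cyp4f15 (0.759). KO library 6 was low in Ppargc1b (0.647), and KO library 1 was high in Ugt2b38 (0.770) and Jak2 (0.674).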

How the results depend on the processing

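No member changed sign under any of 20 alternatives, in which Cyp4a10 ran from -2.75 to -1.75 and Cyp4a14 from -2.89 to -1.66 (log2 fold change). DESeq2 brought past the threshold Cyp4a10 (-2.52), Cyp4a14 (-2.64), the sum of Cyp4a10, Cyp4a31 and Cyp4a32 (-2.22) and the sum of all 6 (-1.44). The replicate block brought Cyp4a12b past it (1.02, adjusted p = 0.0440) and no other member or sum; same-numbered libraries had r of deviations from -0.20 to 0.36, 3 of 6 KO libraries were most like their own number, and the numbers are not taken as pairs. With single libraries left out, Cyp4a10 ran from -2.75 to -2.22 and the sum with its copies from -2.44 (without WT 6, adjusted p = 0.0412) to -1.92. Of members, DESeq2 called 2, the block 1, and fits without 1 library 0 to 1. All genes called numbered 396, against 1236 with DESeq2, 913 with library weights, 257 with total counts, and 25 (without WT 4) to 700 (without WT 6) with a library left out. The difference in the log2 ratio of Cyp4a14 to Cyp4a10, 0.09 over all libraries, ran from -0.081 (without WT 3; -0.0054 without KO 6) to 0.26. Without WT 6, the shares of Cyp4a10 (-13.9 percentage points), Cyp4a31 (2.62), Cyp4a32 (11.2) and the Cyp4a12 pair (35.2) passed (exact permutation, adjusted p = 0.0487). The causes were not tested. The division of reads among close copies, and the number of libraries, limit these values.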
